A study of Mus musculus with 2 samples.

Results

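Mir106b, Mir93 and Mir25 are 3 microRNA genes that lie together inside an intron of Mcm7, and they were read out in heart tissue of the mouse. The members were chosen by their gene symbols in GENCODE release M21, and all 3 were present among the 2202 microRNA genes of the series. The hearts came from female B6CASTF1/J mice aged 2 months, hybrids of the strains C57BL/6J and CAST/EiJ. They form a single group of 2 libraries, labelled as biological replicates 1 and 2, with no genotype, treatment or age to set against it. The labels give a different number after the word female for each library, yet 1 donor label covers both. They were taken as 2 animals from the labels only, so the spread between them may be partly technical. In bulk tissue, fewer cells of a type and less RNA per cell cannot be told apart.

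Mcm7 encodes a subunit of the helicase that unwinds DNA at replication forks, and the gene is transcribed most in dividing cells. The microRNAs are cut from its intron as hairpins, and 1 strand of each hairpin, the guide, then pairs with messenger RNAs mainly through its seed, the bases 2 to 8. The cluster is a paralog of miR-17-92, the polycistron known from proliferating cells and tumours. Known targets of miR-106b and miR-93 include Cdkn1a, an inhibitor of the cell cycle, and miR-25 is known to repress the death gene Bcl2l11. In the heart, miR-25 is known for repressing the calcium pump gene Atp2a2 and the transcription factor gene Hand2. Targets and Mcm7 itself were not measured here, since the tables hold microRNA genes alone.

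In the assembly mm10, Mcm7 lies on the minus strand of chromosome 5, from 138164583 to 138172422. Mir106b (ENSMUSG00000065514.1) lies at 138165737 to 138165818, Mir93 (ENSMUSG00000065527.1) at 138165523 to 138165610 and Mir25 (ENSMUSG00000065394.1) at 138165321 to 138165404. All 3 lie on the strand of Mcm7, inside intron 13 of its full-length transcript of 15 exons. This intron is 748 bases long, and the cluster spans 498 bases of it from the first base of Mir106b to the last of Mir25. Mir106b comes first, 91 bases after exon 13, and is followed by a gap of 126 bases, Mir93, a gap of 118 bases and Mir25. A short transcript of Mcm7 that keeps the intron also covers Mir93 and Mir25 with exon sequence, but not Mir106b.

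**Figure D1:**
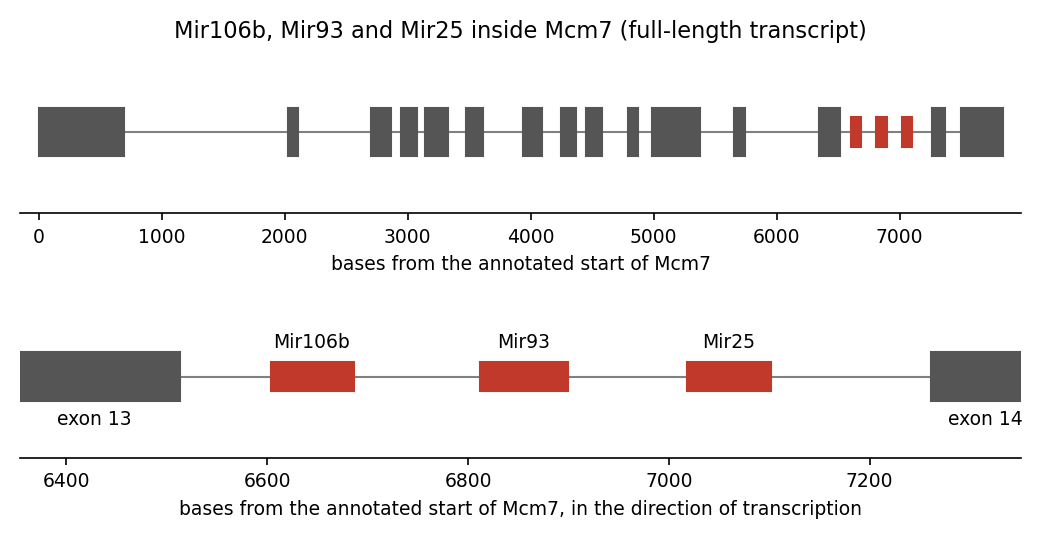
The upper row draws the exons of full-length Mcm7 (grey) and the hairpins (red) by bases from the gene's annotated start, and the lower row enlarges intron 13. The hairpins follow each other as Mir106b, Mir93 and Mir25 within 748 bases of intron.

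The hairpins are shown because they give the position of each guide strand. They are taken from RefSeq for GRCm38.p6, written 5′ to 3′ with both mature arms in capitals.
Mir106b: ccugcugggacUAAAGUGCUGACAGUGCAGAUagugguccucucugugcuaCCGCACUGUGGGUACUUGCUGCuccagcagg
Mir93: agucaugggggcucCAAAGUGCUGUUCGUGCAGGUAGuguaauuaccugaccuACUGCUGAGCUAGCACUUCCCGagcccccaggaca
Mir25: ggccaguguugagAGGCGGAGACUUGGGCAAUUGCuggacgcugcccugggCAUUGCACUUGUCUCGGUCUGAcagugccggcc
The first capitals of a hairpin are its 5p arm and the second its 3p arm. The guide strands are usually taken to be the 5p arm in Mir106b and Mir93 and the 3p arm in Mir25. The tables count reads per gene and do not separate the arms. The hairpins are 82, 88 and 84 bases long for Mir106b, Mir93 and Mir25, with 57.3%, 55.7% and 63.1% of G and C.

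The guide strands fall into 2 seed groups, and the sequences below set the members beside every other mouse arm with the same seed. Of the 1738 mature arms in the RefSeq table, 7 share the seed of miR-106b-5p and miR-93-5p, and 7 share that of miR-25-3p. Capitals mark the seed.
miR-93-5p: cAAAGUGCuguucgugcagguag
miR-106b-5p: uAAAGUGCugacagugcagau
miR-17-5p: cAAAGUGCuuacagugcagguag
miR-20a-5p: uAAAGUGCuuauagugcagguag
miR-106a-5p: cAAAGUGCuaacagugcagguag
miR-20b-5p: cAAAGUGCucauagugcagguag
miR-6383: uAAAGUGCugugucacggaca
miR-25-3p: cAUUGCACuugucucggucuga
miR-92a-3p: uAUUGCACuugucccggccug
miR-92b-3p: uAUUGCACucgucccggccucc
miR-32-5p: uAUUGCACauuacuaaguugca
miR-363-3p: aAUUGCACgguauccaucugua
miR-367-3p: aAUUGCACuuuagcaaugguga
The arm miR-92a-3p is encoded by both Mir92-1 and Mir92-2 and is written once. Position by position from the 5′ end, miR-93-5p and miR-106b-5p have the same base at 16 of 21 positions. Each was closer to an arm of the paralogous clusters than to its own neighbour, miR-93-5p to miR-20b-5p with 20 of 23 positions and miR-106b-5p to miR-17-5p, miR-20a-5p and miR-106a-5p with 18 of 21. The closest arm to miR-25-3p was miR-92a-3p, with 18 of 21. No arm of the 3 members occurred whole in another annotated microRNA transcript, on either strand. The longest stretch shared was 10 bases for miR-106b-5p and miR-93-5p and 12 for miR-25-3p. The whole 21 bases of miR-92a-3p are shared by its genes, so the split of its reads between Mir92-1 and Mir92-2, and the level of either, are uncertain.

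Own-strand counts over all microRNA genes came to 2424441 in replicate 1 and 2770301 in replicate 2, which is 30.0% and 34.7% of the reads. Reads that mapped to several places, 49.5% and 42.7%, were counted for no gene. Levels are given as CPM, counts scaled to the own-strand total of the library, where 1 read was worth 0.412 CPM in replicate 1 and 0.361 CPM in replicate 2. All 3 cardiac muscle markers, Mir208a, Mir208b and Mir499, were detected, which here means 10 or more counts in each library. They summed to 5980 CPM (replicate 1) and 8546 CPM (replicate 2), with Mir208a 3.80-fold lower in replicate 1 but Mir499 1.65-fold and Mir208b 2.14-fold higher. The erythroid markers Mir451a and Mir144 (2 of 2 detected) summed to 9779 CPM (replicate 1) and 93685 CPM (replicate 2). The leukocyte markers Mir142, Mir150, Mir155 and Mir223 (4 of 4) summed to 5489 CPM and 4241 CPM, and the endothelial Mir126a stood at 73653 CPM and 85269 CPM. None of these markers was at 0.

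Mir93 had the most reads of the cluster, 25505 reads in replicate 1 and 26466 reads in replicate 2. That is 10520 and 9553 CPM, or 10037 ± 683 CPM (SD, n = 2), and rank 18 and rank 17 among all microRNA genes. Mir106b, the first hairpin of the intron, had 10164 and 7437 reads in replicates 1 and 2, or 4192 and 2685 CPM (3438 ± 1066 CPM, n = 2), at ranks 33 and 41. Mir25, the last hairpin, had 3329 and 3045 reads, or 1373 and 1099 CPM (1236 ± 194 CPM, n = 2), at ranks 61 and 62. The order Mir93, Mir106b, Mir25 was the same in both libraries, the ranges of the genes did not overlap, and each neighbour in the order differed by more than the SD of either gene. It was not the order along the intron, where the middle hairpin gave the most reads. Order, shares and ratios between genes are those of reads, since how evenly different sequences were captured was not measured. The opposite strand gave 0 reads for each member in both libraries, which allows up to 1.24 CPM in replicate 1 and 1.08 CPM in replicate 2.

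**Figure D2:**
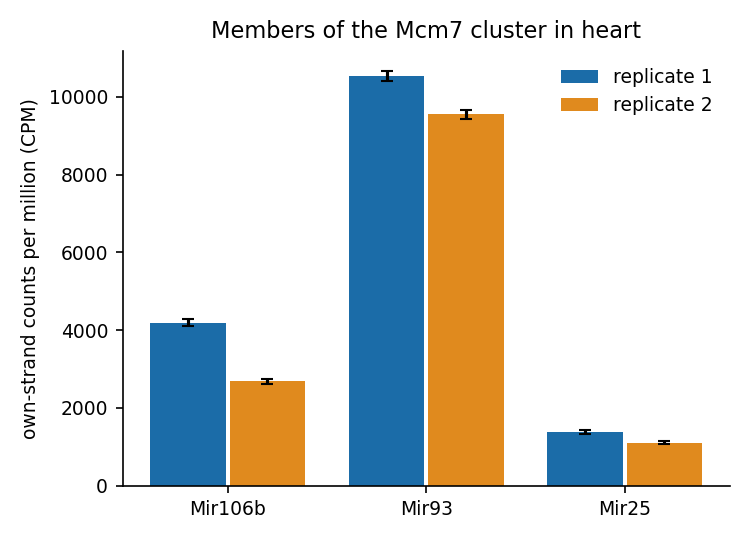
Bars give CPM of each member in replicate 1 (blue) and replicate 2 (orange), in their order along the intron, and error bars are 95% exact Clopper-Pearson intervals, which cover counting error only. Mir93 stands near 10000 CPM in both libraries, above Mir106b and Mir25.

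Together the members held 1.61% of own-strand counts in replicate 1 (95% exact Clopper-Pearson interval 1.59 to 1.62) and 1.33% in replicate 2 (1.32 to 1.35), a mean of 1.47% ± 0.194 (SD, n = 2). Mir93 made up 65.4% of the cluster's reads in replicate 1 and 71.6% in replicate 2. Mir106b made up 26.1% and 20.1%, and Mir25 8.54% and 8.24%. Within the cluster, the share of Mir25 differed least between the libraries. Since the shares add up to the whole cluster, those of Mir93 and Mir106b then had to differ in opposite directions.

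In replicate 1 Mir93 exceeded Mir106b 2.51-fold, with an exact interval of 2.45 to 2.57, and in replicate 2 it did so 3.56-fold (3.47 to 3.65). Mir106b exceeded Mir25 3.05-fold (2.94 to 3.18) in replicate 1, and 2.44-fold (2.34 to 2.55) in replicate 2. All intervals lie above 1, and all 3 pairs passed a two-sided exact binomial test against equal counts in each library. The adjustment was by Benjamini-Hochberg over 209 pairs of detected genes on 1 strand with starts within 10 kb. Of all those pairs 85.6% passed it in replicate 1 and 83.7% in replicate 2, so an unequal pair is the common case among clustered microRNA genes. Counted per hairpin base, the ratios had geometric means of 2.78 for Mir93 over Mir106b and 2.80 for Mir106b over Mir25, against 2.99 and 2.73 by reads, and the order stayed.

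The ratios within the cluster also differed between the libraries. The ratio of Mir93 to Mir106b was 1.42-fold lower in replicate 1 (two-sided Fisher's exact test on the reads, Benjamini-Hochberg over 209 pairs, adjusted p = 4.7e-87). The ratio of Mir106b to Mir25 was 1.25-fold higher in replicate 1 (adjusted p = 2.4e-13 by the same test), and that of Mir93 to Mir25 was 1.13-fold lower (adjusted p = 8.8e-06). All 3 pairs passed, against 41.6% of all pairs and 81.5% of the 65 pairs in which each gene had 100 counts or more per library, where depth is closer to that of the members. In size the changes were smaller than that of the median pair, 0.59 on the log2 scale, and lay at percentiles 45.5, 32.1 and 18.2 of the pairs for the order given above. Pairs share genes, and 124 of the 209 lie on chromosome 12; over the 85 others the median was 0.72 and 71.8% passed. The test compares 2 libraries beyond counting error and no conditions.

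**Figure D3:**
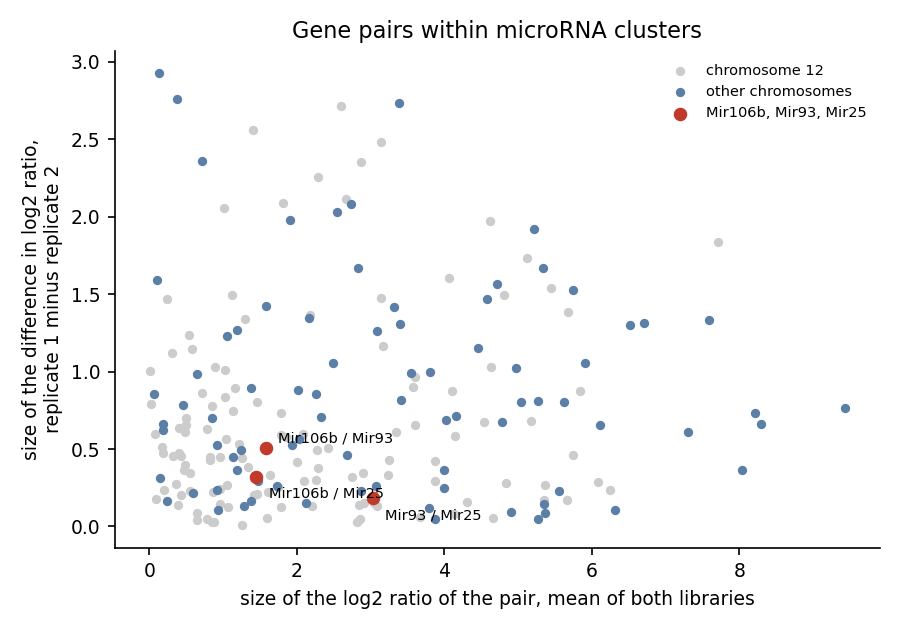
Each point is a pair of detected microRNA genes on 1 strand with starts within 10 kb, by the size of its log2 ratio (mean of both libraries) and by how far that ratio differed between replicate 1 and replicate 2. The members' pairs (red) lie at log2 differences of 0.50, 0.32 and 0.18, below the median pair at 0.59.

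Scaled by library totals, each member was higher in replicate 1, by unequal amounts, though Mir93 turned slightly lower with TMM factors, DESeq2 size factors or the either-strand column. In that column the members' reads were the same and only the library totals differed. Mir106b was 1.56-fold higher in replicate 1 (exact interval 1.52 to 1.61), with a two-sided exact binomial test adjusted by Benjamini-Hochberg over 306 detected genes giving p = 2.5e-189. Mir25 was 1.25-fold higher (1.19 to 1.31, adjusted p = 2.9e-18 by the same test). Mir93 was 1.10-fold higher (1.08 to 1.12, adjusted p = 2.3e-27 by the same test), but 0.946-fold with TMM factors, 0.965-fold with DESeq2 size factors and 0.993-fold by the either-strand column, so its direction depends on the scaling. All 3 thus passed the test, against 61.1% of detected genes; by the either-strand column or without Mir451a in the totals, 2 did and Mir93 did not. Mir106b alone also reached 1.5-fold, which 36.6% of genes did with the test, 25.5% upward and 11.1% downward in replicate 1.

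By library totals, the profile as a whole leaned towards replicate 1. The median detected gene was 1.14-fold higher in replicate 1, a log2 ratio of 0.19. The median was -0.028 with TMM factors, 0.043 by the either-strand column and 0.073 without Mir451a in the totals. Relative to the median by library totals, Mir106b lay 0.45 higher on the log2 scale, Mir25 0.13 higher and Mir93 at -0.052. With 2 libraries the DESeq2 factors centre the median near 0, so the members' log2 ratios with them repeat these values. By size of log2 ratio they stood at percentiles 62.4, 38.9 and 16.0 of detected genes. Of the 112 genes that passed with at least 1.5-fold, 69.6% were higher in replicate 1, against 46.9% of 98 with TMM factors, 50.5% of 97 with DESeq2 factors and 54.5% of 88 by the either-strand column. Mir106b fell under 1.5-fold with each of these, at 1.34, 1.37 and 1.41-fold. The erythroid Mir451a alone took up 7816 CPM of replicate 1 against 86827 CPM of replicate 2. With its reads left out of the totals Mir106b was 1.44-fold and Mir25 1.15-fold higher in replicate 1, and the ratio of Mir93 was 1.01 (adjusted p = 0.18 by the same exact binomial test). By the full library totals, the leukocyte markers summed 1.29-fold higher in replicate 1 and the erythroid markers 9.58-fold lower. The leukocyte markers were uneven, with Mir155 1.03-fold higher in replicate 1, Mir150 1.42-fold, Mir142 1.55-fold and Mir223 5.25-fold. By the same totals, the cardiac muscle markers summed 1.43-fold lower in replicate 1, with 2 of 3 higher there. The endothelial Mir126a was 1.16-fold lower. The part of these markers in the members' reads was not tested.

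**Figure D4:**
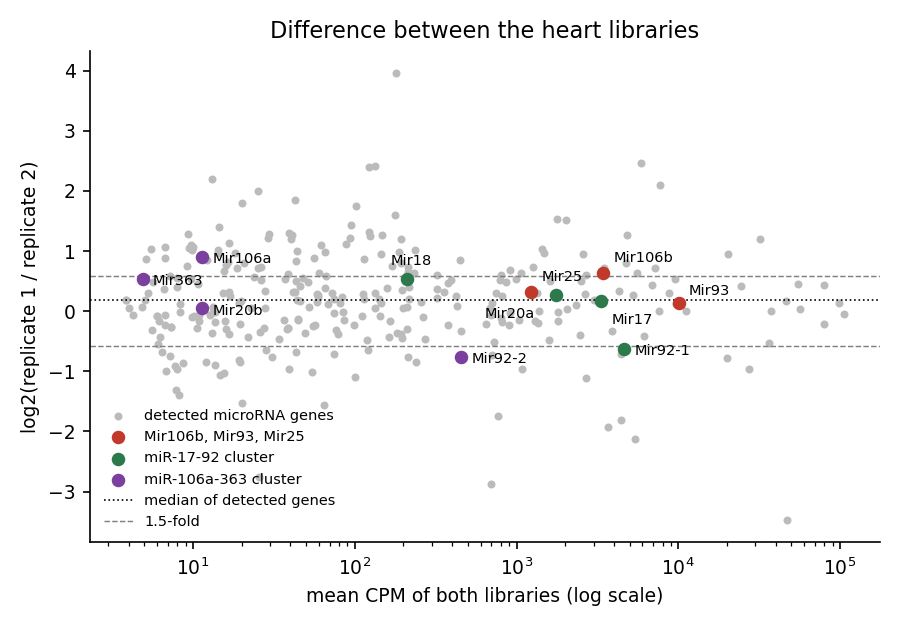
The log2 ratio of replicate 1 over replicate 2 is plotted against mean CPM for the 306 detected genes, with the members in red and the genes of the paralogous clusters in green and purple. By library totals the members lie between 0.14 and 0.64 (Mir93 turns below 0 with TMM or DESeq2 factors), where the dotted line marks the median of 0.19 and the dashed lines 1.5-fold.

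Among the genes that carry the seed of miR-93 and miR-106b, the members held most of the reads. The group had 48900 reads in replicate 1 and 47039 in replicate 2, of which Mir93 and Mir106b together held 72.9% (exact interval 72.5 to 73.3) and 72.1% (71.7 to 72.5). Their joint share, 72.5% ± 0.614 (SD, n = 2), varied less than the share of each alone, 54.2% ± 2.90 for Mir93 and 18.3% ± 3.52 for Mir106b. Mir17 and Mir20a, the genes of miR-17-92 with this seed, held 26.9% in replicate 1 and 27.8% in replicate 2. The X-linked Mir106a and Mir20b held 0.131% and 0.113% together.

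Mir17, the first hairpin of miR-17-92, had 3514 CPM (replicate 1) and 3133 CPM (replicate 2), and Mir20a had 1917 and 1589 CPM. Mir106b and Mir17 overlapped in level, with Mir106b above Mir17 in replicate 1 and below it in replicate 2, so their order is not set by these libraries. Mir106a had 36 and 22 reads (14.8 and 7.94 CPM) in replicates 1 and 2, and Mir20b 28 and 31 reads (11.5 and 11.2 CPM). Mir6383 had 0 reads in both libraries. By library totals, all 6 genes of the group that passed the count minimum of 10 had a ratio above 1 for replicate 1 over replicate 2, but 3 of them, Mir93, Mir17 and Mir20b, fell below 1 with TMM or DESeq2 factors. Mir106b and Mir106a passed the test with at least 1.5-fold by library totals, and neither did with TMM factors, DESeq2 factors, the either-strand column or Mir451a left out of the totals.

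Mir25 was the second gene of its seed group, which differed from the other in its division. The group had 13247 reads in replicate 1 and 20487 in replicate 2. Mir25 held 25.1% of them (exact interval 24.4 to 25.9) in replicate 1, and 14.9% (14.4 to 15.4) in replicate 2, a mean of 20.0% ± 7.26 (SD, n = 2). Mir92-1, the last hairpin of miR-17-92, held 67.1% and 76.2%, and Mir92-2 of the X-linked cluster 6.14% and 7.71%.

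The share of Mir25 was lower in replicate 2, where the miR-92a genes had more reads and Mir25 itself had fewer. Mir92-1 had 8889 and 15616 reads in replicates 1 and 2, and was 1.54-fold lower in replicate 1. Mir92-2 had 814 and 1579 reads and was 1.70-fold lower in replicate 1. Both passed the test with at least 1.5-fold, in the direction opposite to Mir25, by library totals and with each of these other scalings. Because their arm is shared and multimapping reads entered no gene's count, their levels are uncertain, and so is the share of Mir25 in this group. Mir92b had 117 and 119 reads and Mir32 had 84 and 117 reads in replicates 1 and 2, neither passing the test (adjusted p = 0.49 and 0.24 by the same exact binomial test). Mir363 had 14 and 11 reads, and Mir367, known from pluripotent cells, had 0 in both.

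**Figure D5:**
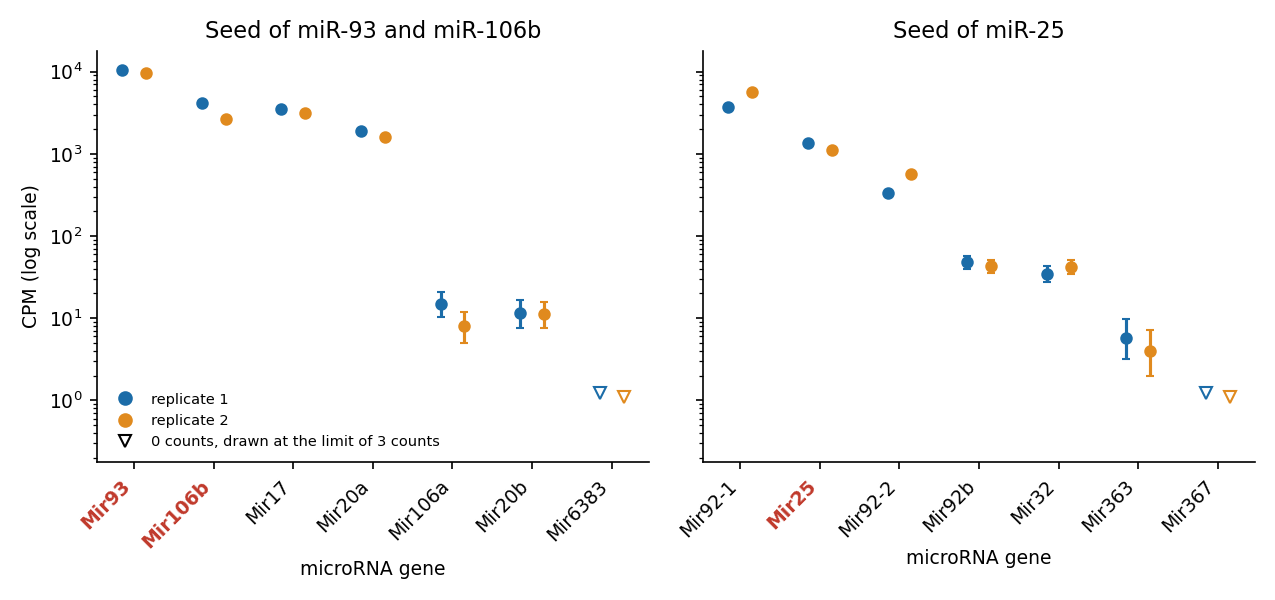
Points give CPM on a log axis for every gene with the seed of miR-93 and miR-106b (left) or of miR-25 (right), with 95% exact intervals of counting error, and open triangles mark 0 counts at the limit of 3 counts. Mir93 and Mir106b (red labels) lead the left group, and Mir25 stands below Mir92-1 in the right one.

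As a whole, the Mcm7 cluster had more counted reads than either paralogous cluster. Its sum was 16085 CPM (replicate 1) and 13337 CPM (replicate 2), while the 6 genes of miR-17-92 summed to 9351 and 10535 CPM. That is 1.72 times the miR-17-92 reads in replicate 1, with an exact interval of 1.69 to 1.75, and 1.27 times (1.25 to 1.29) in replicate 2. These ratios are uncertain beyond their intervals. Mir92-1 gave 8889 of the 22670 reads of miR-17-92 in replicate 1 and 15616 of 29184 in replicate 2. Any reads of its shared arm set aside as multimapping would lower the ratios. The 6 genes of the X-linked miR-106a-363 cluster summed to 368 CPM (replicate 1) and 593 CPM (replicate 2). The Mcm7 cluster thus had 43.7 and 22.5 times their reads, with the same limit for Mir92-2. Copies of the arms of Mir18, Mir19a, Mir19b-1, Mir18b and Mir19b-2 were not looked for, so reads of these genes may also have been set aside.

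The paralogous clusters held genes on both sides of the library difference. Of the 6 genes of miR-17-92 only 4 passed the count minimum, and all 4 passed the binomial test (3 with each other scaling). Of these, Mir92-1 alone reached 1.5-fold, downward in replicate 1. Mir18, whose seed differs from that of its neighbours, had 606 and 479 reads in replicates 1 and 2. Mir19a had 5 and 6 reads and Mir19b-1 had 3 and 0, under the minimum. Copies of the arms of Mir18, Mir19a and Mir19b-1 were not looked for, so low counts here may reflect reads set aside as multimapping. Of the 6 X-linked genes 4 passed the minimum, with Mir92-2 downward in replicate 1 by the same rule. Mir106a passed the rule upward by library totals alone, and its ratio stayed above 1 with the other scalings. Mir18b had 0 and 1 reads and Mir19b-2 had none. The median log2 ratio of replicate 1 over replicate 2 was 0.32 over the 3 members, 0.22 over the 4 genes of miR-17-92 and 0.29 over the 4 of miR-106a-363, beside 0.19 over all detected genes. With TMM factors these medians were 0.10, -0.00049 and 0.074, beside -0.028 over all detected genes.

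Genes with the most similar level in both libraries were found by distance over log2(CPM + 1) in 2 libraries, which measures level and says nothing of function. Nearest to Mir93 were Mir30d, at 10100 and 9276 CPM in replicates 1 and 2, and Mir191 at 11189 and 11136 CPM. Nearest to Mir106b were Mir499, encoded in the myosin gene Myh7b, at 4354 and 2641 CPM, and Mir17. Nearest to Mir25 were Mirlet7c-2 at 1469 and 1192 CPM and Mir146 at 1576 and 952 CPM. The distances ran from 0.059 for Mir499 to 0.338 for Mir17.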

How the data were processed

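Small RNA of 2 heart libraries was analysed from 2 tables of raw read counts per microRNA gene, as deposited by the authors without normalization. Reads were placed on mm10 and counted against annotation M21, per the labels and the text deposited with the tables; the sources used here give no aligner, counter, version or trimming step. The tables have no header, and their 3 count columns were read from their values as either-strand, own-strand and opposite-strand reads. The 4 lines that name no gene, 70.0% of the reads in replicate 1 and 65.3% in replicate 2, were left out of totals and tests.

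Own-strand counts were used, scaled to CPM of their total. Detected means at least 10 counts in both libraries. Differences between libraries were tested with an exact binomial test for each gene (two-sided) and for each cluster pair (starts within 10 kb, hairpins that overlap left out) with Fisher's exact test (two-sided), adjusted by Benjamini-Hochberg at 0.05 over all detected genes or pairs. With 1 group there is no contrast for a replicated model, so p-values compare 2 libraries beyond counting error. Intervals are exact at 95%, the limit for 0 is 3 counts, and both cover counting error only, since the tables hold no molecular identifiers. The tests were tried on simulated data that held counting error alone, which cannot show how they behave under variation between libraries. Named are the members, all genes with their seeds, both paralogous clusters and the 2 nearest genes by level per member. The members and lists were chosen with earlier results of these data known. Sequences come from RefSeq (GRCm38.p6), where all 3 hairpins matched the M21 positions, and copies were looked for in M21 microRNA transcripts, not in the genome. Alternatives were the either-strand column, other denominators, count filters, scalings, distances, thinning and each replicate alone. Tools were Python 3.11.15, numpy 2.4.6, pandas 2.3.3, scipy 1.17.1, matplotlib 3.10.9, R 4.3.3, edgeR 4.0.16 (TMM factors) and DESeq2 1.42.0 (size factors).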

Additional observations from a re-analysis of the deposited data

How the results depend on the processing

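The order of the members held under every alternative run for it, though the either-strand column could not change it. The members' pair ratios could not change at all, since their alternatives altered only which other pairs were tested or left the members' reads the same. Of 87 alternatives 3 turned a direction, all for Mir93 between the libraries, and 4 took Mir106b under 1.5-fold with its direction kept. Another 13 moved a level, a share or a count beyond its limit, and 67 did none of these. Some of the 67 could not have come out otherwise, so their number does not measure robustness. They include the 15 for the members' pair ratios and the count filters for the members' folds. They also include each replicate alone for a level or share, since either of 2 values always lies within 1 SD of their mean. In the either-strand column the members' reads were the same and only the total was smaller. Mir451a, Mir191 and Mir142 had 0 reads there in both libraries, and Mir126a had 11 and 9 in replicates 1 and 2. It is thus no separate check of the members' reads, and it shares the loss of Mir451a with the totals without that gene. With that column the mean levels were 13429 CPM for Mir93, 4560 CPM for Mir106b and 1649 CPM for Mir25, and the cluster held 1.96% of counts. With all reads as the denominator they were 3236, 1095 and 397 CPM, and 0.473%. Per hairpin base Mir93 stood at 8874 CPM. Each replicate alone gave 9553 to 10520 CPM for Mir93, 2685 to 4192 for Mir106b, 1099 to 1373 for Mir25 and 1.33% to 1.61% for the cluster. The log2 ratio of Mir106b, 0.64, dropped under 1.5-fold at 0.49 by the either-strand column, 0.42 with TMM factors, 0.45 with DESeq2 factors and 0.52 without Mir451a in the totals. That of Mir93, 0.14, turned to -0.010 by the either-strand column, -0.079 with TMM and -0.052 with DESeq2 factors. The scalings moved the median of all genes by -0.22 (TMM), -0.19 (DESeq2), -0.15 (either strand) and -0.12 (without Mir451a) on the log2 scale. Each of them shifts the log2 ratio of every member by 1 common amount, so the differences between the members stayed as they were. A minimum of 100 counts left 65 of 112 genes called and 53 of 87 pairs, since fewer were tested. Starts within 1 kb gave 44 pairs and within 50 kb 147; pairs outside chromosome 12, chosen after seeing the data, gave 61. No paired analysis was possible because the labels give 1 group, and with 1 replicate left out no comparison between libraries can be made. Depth limits Mir106a, Mir20b and Mir363, with under 40 reads each, and not the members.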
